A study of Mus musculus with 15 samples.

Results

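Dscam, Cntnap2, Cntn4, Cntn5 and Ncam2 are long neuronal genes for cell-surface adhesion molecules, and they were followed here through nucleosome and ACF1 maps of the mouse nucleus accumbens after social defeat. They were picked by name, with earlier results of these data known. The occupancy tables gave 52 of their 83219 rows to these 5 of 7814 named genes. The shift tables gave them 0 of 5115 rows, and 0 of the 2598 ACF1 segments overlapped them.

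Contactins are immunoglobulin-type proteins held in the outer leaflet of the neuronal membrane by a lipid anchor, and they act in pairs with other surface proteins. Cntn4 and Cntn5 encode contactins of growing axons and forming synapses. Cntnap2 encodes a contactin-associated protein of the neurexin superfamily, which holds potassium channels in place along myelinated axons. Dscam and Ncam2 encode immunoglobulin-type adhesion molecules. In the mouse retina Dscam lets neurites of like cells recognise and space each other, and Ncam2 acts in axons of the olfactory system. The nucleus accumbens is a forebrain region of reward and motivation. Histone H3 marks where nucleosomes sit, and ACF1 (Baz1a) is the accessory subunit of ACF, a complex that slides and spaces nucleosomes.

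All mice were C57BL/6. Susceptible and resilient mice had met a new aggressive CD1 mouse for 10 min on 10 consecutive days, with 24 hours of sensory contact. Susceptible mice then avoided a CD1 mouse in a social interaction test and resilient mice did not, while control mice were undefeated. Per the labels' protocols, accumbens punches of 10 mice were pooled per replicate, so every value mixes all cell types of the punch, and the punches date from 48 hours after the final defeat. There was 1 H3 sample and 1 ACF1 sample per group, and 1 deposited occupancy table and 1 shift table per pair of groups.

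The deposited H3 tables listed positions that the authors had selected, marked Up or Down, with no size, read count, p-value or value per library. Depth was therefore unknown, no spread between replicates could be taken, and no test was run; every number below is a count or a distance. Up was read as more H3 in whichever group the table names first. That reading is not stated in the files, and under the other one all directions turn round. A row below means 1 listed position in 1 table. In susceptible against control, chromosome 1 held 32791 of the 49408 rows, whereas it held 1406 of 17538 rows in resilient against control and 1310 of 16273 in the table of resilient against susceptible mice. The 5 genes lie on chromosomes 6, 9 and 16, so they were set beside named genes outside chromosome 1, and beside the 158 of those that are at least 500 kb long. A gene entered these sets only if some H3 table named it, so genes with no listed position are missing from them.

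The start of Dscam is shown because it is the member with a listed position near its start, 2.94 kb inside the gene. That of Cntnap2, the longest member, is shown for contrast: its nearest listed position was 13.8 kb inside. Both are RefSeq windows of 300 bases on GRCm38.p6, with 250 bases before the start and 50 after it, 5′ to 3′ on the strand of the gene. The tables use the build mm9, so the windows' coordinates cannot be laid beside the positions. Capitals mark CG dinucleotides, the sites of DNA methylation, searched as the letters CG, which read the same on both strands.
Dscam, chr16:97170686-97170985, minus strand: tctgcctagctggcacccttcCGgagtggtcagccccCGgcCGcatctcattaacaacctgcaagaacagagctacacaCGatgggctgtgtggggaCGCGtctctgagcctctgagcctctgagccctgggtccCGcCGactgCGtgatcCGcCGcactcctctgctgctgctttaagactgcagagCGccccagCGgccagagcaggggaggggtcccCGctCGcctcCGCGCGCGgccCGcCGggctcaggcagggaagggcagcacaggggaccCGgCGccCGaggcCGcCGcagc
Cntnap2, chr6:45059811-45060110, plus strand: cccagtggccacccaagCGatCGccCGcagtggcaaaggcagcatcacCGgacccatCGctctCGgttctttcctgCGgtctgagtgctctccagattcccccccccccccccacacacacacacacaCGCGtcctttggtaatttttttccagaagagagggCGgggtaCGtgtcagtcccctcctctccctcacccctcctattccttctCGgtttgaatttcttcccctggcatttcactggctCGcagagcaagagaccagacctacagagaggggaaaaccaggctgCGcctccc
The Dscam window held 26 CG and the Cntnap2 window 14, against a median of 7 over 32851 RefSeq promoter windows, 94.6% of which held at least 1. Both starts listed for Cntn5 had 26, and Ncam2 had 41, more than 96.5% of all windows. Cntn4 had 4 and 12 in 2 overlapping windows, beginning at 106118515 and 106118692, on both sides of that median. Being on another build, these were not matched to the 2 Cntn4 starts of the H3 data used below. A downstream start of Cntnap2 had 3. All 5 genes matched by symbol. A TATAAA, searched on both strands, was in none of their 8 windows, whereas 13.6% of all windows held it.

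Dscam carried the most listed positions of the 5 genes, although it is the second shortest. It spans 578.7 kb of chromosome 16 on the minus strand (mm9, 96813686 to 97392342) and held 20 rows over the 3 tables, or 3.46 per 100 kb. Cntnap2, 2241 kb on the plus strand of chromosome 6 (45010059 to 47251370), held 13 rows, or 0.580 per 100 kb. Cntn5, 1244 kb on the minus strand of chromosome 9 (9660890 to 10904726), held 10 rows, or 0.804 per 100 kb. Cntn4, 996.5 kb on the plus strand of chromosome 6 (105627738 to 106624264), held 6 rows, or 0.602 per 100 kb. Ncam2 is the shortest, 397.1 kb on the plus strand of chromosome 16 (81200941 to 81598050), and held 3 rows, or 0.755 per 100 kb.

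Per length, Dscam thus had 5.96 times as many rows as Cntnap2, 5.74 times as many as Cntn4, 4.58 times as many as Ncam2 and 4.30 times as many as Cntn5. Among the 158 long genes the density ran from 0.112 to 5.75 rows per 100 kb, with a median of 1.00 and quartiles of 0.461 and 1.84. Dscam ranked 8 in this order, after Skint5, Adarb2, Mecom, Nlgn1, L3mbtl4, Wwox and Fhit. Cntn5 ranked 88, Cntn4 100 and Cntnap2 105, all below the median and above the lower quartile. Cntnap2 was the second longest of the 158. The 4 genes other than Dscam lay between 0.580 and 0.804 per 100 kb, on 3 to 13 rows each. Over all named genes outside chromosome 1, short ones included, the pooled density was 2.75. A position listed in more than 1 table counts more than once here, and the 20 rows of Dscam were 16 distinct positions.

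**Figure D1:**
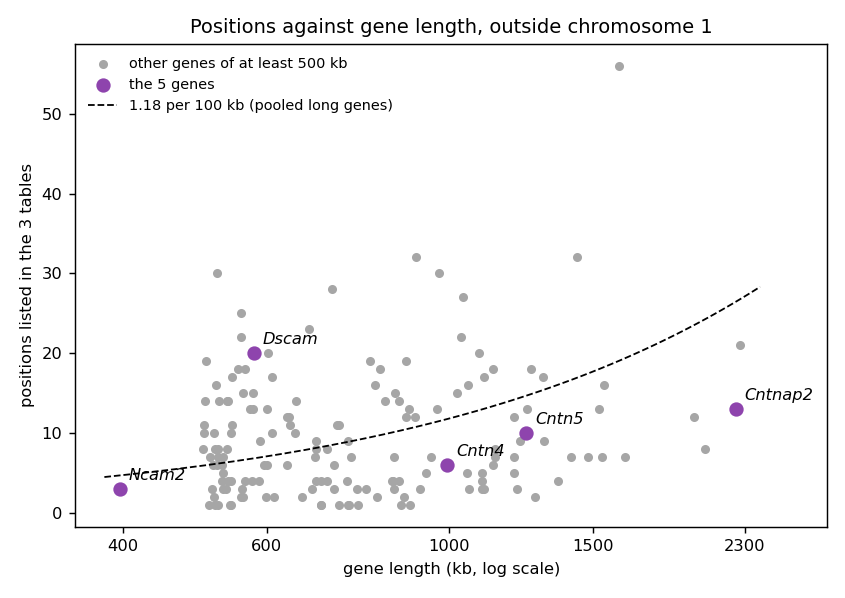
Rows listed in the 3 occupancy tables (vertical axis) against gene length in kb (horizontal axis, log scale). Grey points are other genes of at least 500 kb outside chromosome 1, purple points the 5 adhesion genes, and the dashed line the pooled density of the long genes, 1.18 rows per 100 kb; Dscam, with 20 rows, lies above the line and the other 4 below it.

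Susceptible against control mice set defeated, avoiding animals against undefeated ones. This table held 20 rows for the 5 genes, 7 Up and 13 Down, so that 35% were Up. Among all rows of named genes outside chromosome 1 the share was 37.6%, among rows of long genes 38.1%, and over the whole table, with chromosome 1, 14.8%. The share in the adhesion genes was close to that of other genes off chromosome 1. With 1 gene left out, it ran from 29.4% without Cntn5 to 43.8% without Cntn4. Of the 5 genes, 4 had a row, where 53.9% of named genes and 86.7% of long genes outside chromosome 1 had one.

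Cntn4 was the member listed in a single direction here. Its 4 positions were all Down: 105852032 and 105955302, which are 224 and 328 kb from the first of its 2 listed starts, and 106413922 and 106490632, at 786 and 863 kb from it. The pair farther on was annotated to a shorter transcript that starts at 106068758. These positions stood far apart, the closest neighbours being 76710 bp from each other. Dscam had 3 Up and 5 Down positions. Its Down positions included 97389402, the 2.94 kb one, which was the only row of the 52 in a promoter class. The other 4 Down positions lay 90.1, 198, 213 and 270 kb from the start, and its Up positions lay 94.7, 109 and 446 kb from it. Cntnap2 had 2 Up and 3 Down positions, with the Down ones at 730, 889 and 1345 kb and the Up ones farther on, at 1512 and 1588 kb. Cntn5 had 2 Up positions near its far end, at 952 and 1201 kb, and 1 Down at 573 kb. Ncam2 had 0.

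**Figure D2:**
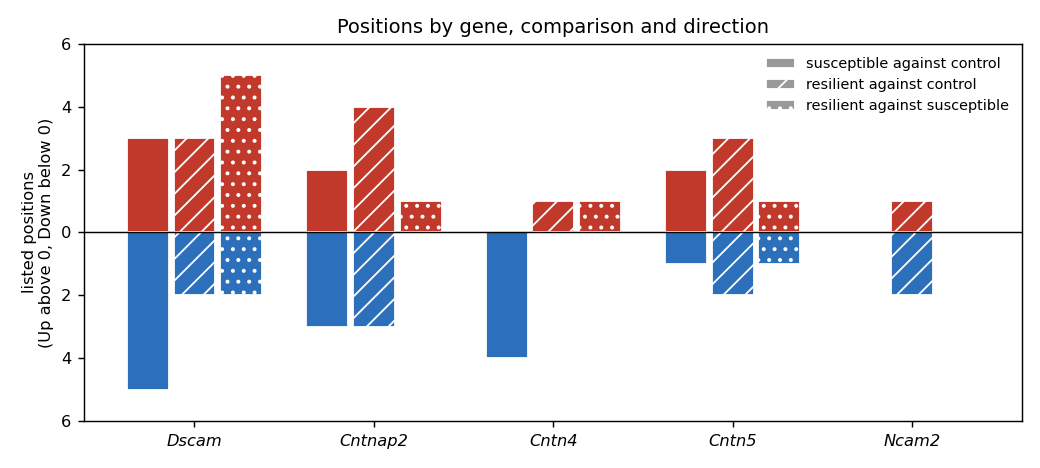
Number of listed positions per gene, in bars for the 3 comparisons, each 1 deposited table with no replicate and so no error bar. Up positions run above 0 and Down positions below it; Cntn4 has 4 Down and 0 Up in susceptible against control, and Ncam2 has bars in resilient against control alone.

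Resilient against control mice set defeated animals that kept approaching others against undefeated ones. Of 21 rows, 12 were Up and 9 Down, a share Up of 57.1%. Rows of named genes outside chromosome 1 were Up in 36.7% and those of long genes in 45.5%. A single row moves the members' share by 4.76 percentage points here. All 5 genes had a row, beside 53.3% of named genes and 88.6% of long genes.

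Cntnap2 led with 4 Up and 3 Down positions. The Up ones lay at 13.8, 368, 816 and 1238 kb from its start and the Down ones at 730, 1554 and 1671 kb. Up positions were mostly nearer the start here, though not all, and in susceptible against control they were the farther ones. With 7 rows here and 5 there along 2241 kb, nothing is read from this order. Dscam had 3 Up positions, at 108, 428 and 574 kb, and 2 Down at 38.6 and 98.2 kb. The outermost Up position, 96818432, is at 99.2% of the gene's length. Cntn5 had 3 Up, at 115, 926 and 939 kb, and 2 Down, the nearer at 886 kb. The other Down position, 9660112, was given to the gene by name but lay 779 bp past its listed end. Cntn4 had 1 Up, 560 kb from its first start. Ncam2 had its 3 rows here: Down at 81333602 and 81510642, and Up at 81580042, which are 133, 310 and 379 kb from its start.

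Setting resilient against susceptible mice compares animals that had all been defeated. Here 11 rows were listed, 8 Up and 3 Down, a share Up of 72.7%, where rows of named genes outside chromosome 1 were Up in 49.8% and those of long genes in 52.1%. Dscam supplied 7 of the 11 rows; without it, 4 remained, of which 3 were Up, and a single row moves the members' share by 9.09 percentage points. A row was present in 4 of the 5 genes, beside 49.2% of named and 89.2% of long genes. Dscam had 5 Up positions, at 89.9, 108, 391, 407 and 574 kb from its start, and 2 Down at 94.7 and 109 kb. Cntn5 had 1 Up at 939 kb and 1 Down at 874 kb. Cntn4 and Cntnap2 had 1 Up each, at 560 kb and 1547 kb, and Ncam2 had 0. Cntnap2, with 0.0446 rows per 100 kb, was far under the pooled 0.381 of long genes in this table.

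**Figure D3:**
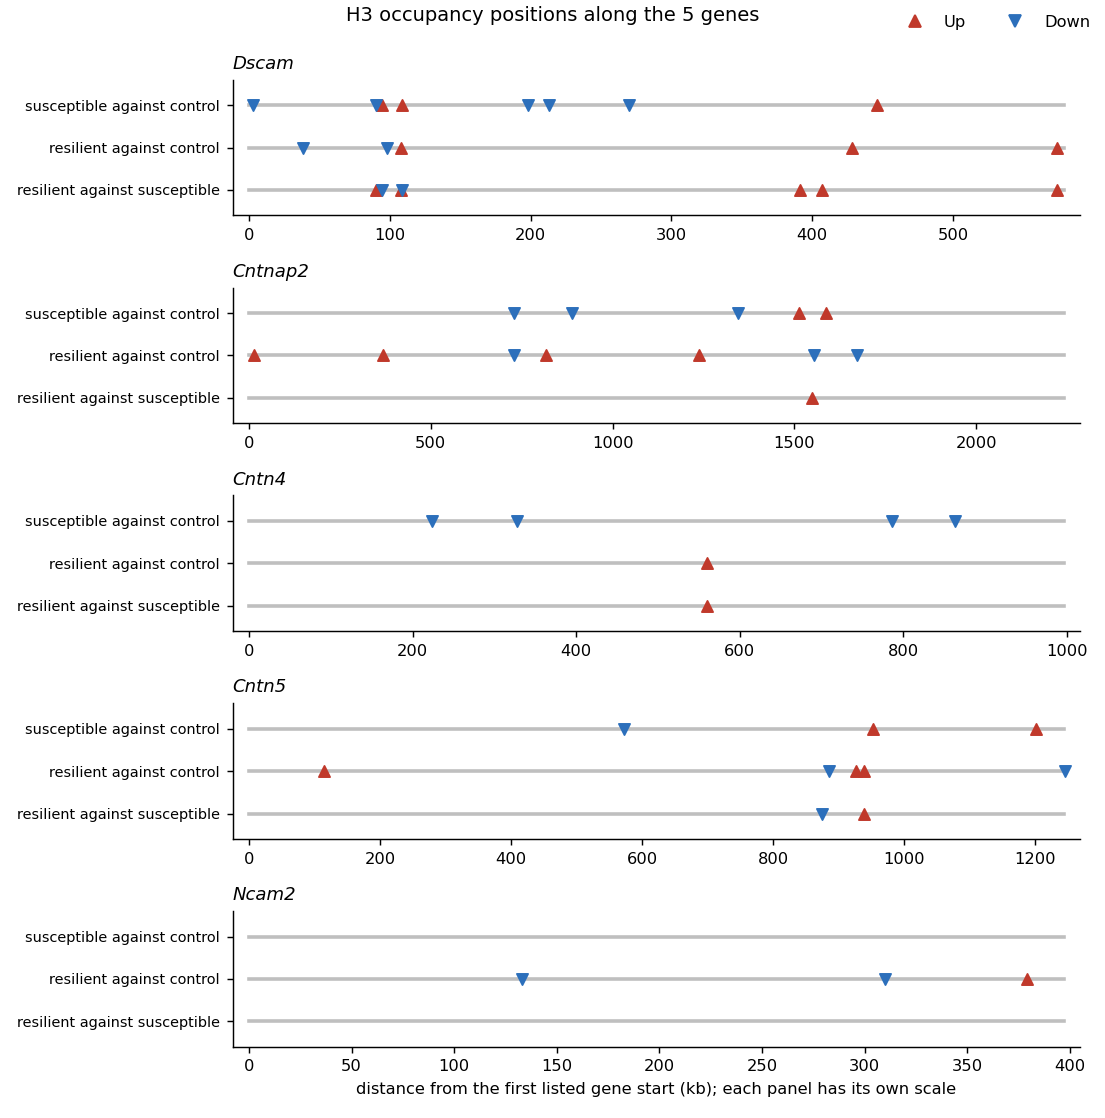
Listed H3 occupancy positions along each gene, in kb from its first listed start (horizontal axis, a separate scale in each panel), with 1 line per comparison; red upward triangles are Up and blue downward triangles Down. Each comparison lists Dscam positions about 90 to 109 kb from its start, some of them at the same listed coordinate in more than 1 comparison. In resilient against control these are at 98.2 and 108 kb alone. The closest neighbours are 76710 bp apart in Cntn4 and 7270 bp apart in Cntnap2.

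The 52 rows were 45 distinct positions, and 7 of these were in more than 1 table at the same listed coordinate. The members' listed coordinates all end in the same digit, so a match is not resolved to the single base. Each pair of tables shares a group, whose library enters both, so these numbers are a description. The 7 were 15.6% of the members' positions, near the 12.8% in long genes and the 12.1% over all positions outside chromosome 1. Read with Up as higher in the first-named group, 2 of the 7 were highest in susceptible mice, 4 in resilient mice and 1 in controls. Those highest in susceptible mice were Dscam 97283552 and 97297682, each Up in the first comparison and Down in the third. Those highest in resilient mice were Dscam 96818432 and 97284332, Cntn4 106187802 and Cntn5 9965432, each Up in both tables of resilient mice. Cntnap2 45739972 was Down in both tables against controls. Dscam thus held 4 of the 7, marked for different groups, and Ncam2 held 0. Long genes had 46, 65 and 65 such positions highest in susceptible, resilient and control mice, and with 7 positions nothing is read from the members' split. Positions lowest in 1 group were almost absent: 0 in long genes. Outside chromosome 1 they were 5 for susceptible, 4 for resilient and 7 for control mice, of 5158 positions in more than 1 table. Being highest rather than lowest is thus the form of nearly all shared positions, and not a trait of these genes.

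The positions of Dscam were clustered. Of its 16 distinct positions, 6 lay within 18.9 kb, from 97283552 to 97302442, and between them they gave 9 of its 20 rows. Over the 158 long genes, the most distinct positions in any 20 kb had a median of 2, and 124 genes had fewer than 3. Nlgn1, a synaptic adhesion gene, had 16, and it was the 1 long gene ahead of Dscam. Cntn5 and Cntnap2 reached 2 each, and Cntn4 and Ncam2 1 each. The window and its length were chosen after the positions were seen.

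Both directions were listed inside that stretch. At its far side, 97283552 was marked highest in susceptible mice, and 780 bp closer to the start 97284332 was marked highest in resilient mice. Next came 97294162, Down in resilient against control, and 97297682, again highest in susceptible mice. At the near side, 97302232 was Down in susceptible against control, and 210 bp from it 97302442 was Up in resilient against susceptible. These were the only neighbouring positions within 1000 bp of each other in the 5 genes. The tables class the whole stretch as gene body; its exons and introns on mm9 are not analysed here.

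**Figure D4:**
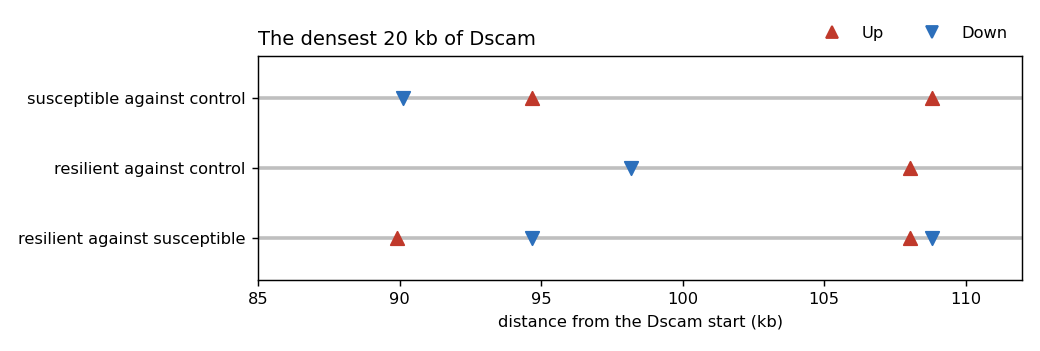
Positions in the densest stretch of Dscam, in kb from its start (horizontal axis), with 1 line per comparison; red upward triangles are Up and blue downward triangles Down. The position at 94.7 kb and the one near 109 kb are Up for susceptible over control mice and Down for resilient over susceptible mice.

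Along the genes, the rows fell at 18, 11 and 23 in the first, middle and last of 3 equal parts. Long genes had 501, 474 and 573, so 34.6% of the members' rows and 32.4% of the long genes' rows lay in the first part. Dscam had 11, 3 and 6, and Cntn5 had 1, 1 and 8, its rows lying towards the end of the gene. Cntn4 had 2 in each part, Cntnap2 had 4, 4 and 5, and Ncam2 had 0, 1 and 2. Gene body was the class of 51 of the 52 rows (98.1%), as of 99.4% of long-gene rows and 87.2% of rows of all named genes.

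The DNA around the genes held listed positions as well. In the 500 kb on both sides of Dscam there were 12 rows in susceptible against control, 1 Up and 11 Down. Rows of named genes outside chromosome 1 were Up in 37.6% there, and no share was taken over flanks in general. Dscam itself had 1.38 rows per 100 kb in that table, and its flanks 1.20. Resilient mice had 7 rows in these Dscam flanks against control, 3 Up and 4 Down, and 5 against susceptible mice, 2 Up and 3 Down. Cntn5 had 0.241 rows per 100 kb in susceptible against control, and its flanks 1.60, from 16 rows, 6 Up and 10 Down. Flanks of Cntn4 held 6 rows in each table, those of Cntnap2 4, 4 and 3, and those of Ncam2 3, 2 and 6. In susceptible against control these were 2 Up and 4 Down for Cntn4, 3 and 1 for Cntnap2, and 2 and 1 for Ncam2. Ncam2 itself thus had no row in the pair of tables where its flanks had 3 and 6.

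No nucleosome shift was listed in any of the 5 genes. Of the 158 long genes, 15.8% held a shift in some table. The nearest to a member was a shift of -60 bp, listed for resilient against control in the authors' deposited table, 70.5 kb from Cntn5. For susceptible against control, the authors' deposited table placed a shift of 70 bp 149 kb from the same gene. Every other nearest shift was at least 630 kb from its member.

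ACF1 segments, the minority state E2 of the deposited segmentations, also missed the 5 genes in all 3 lists. The files do not say which state stands for ACF1 binding. The lists differ in size, with 1133 segments in susceptible mice, 716 in resilient mice and 749 in controls. On chromosome 16 they hold 45, 33 and 29. Neither the shares nor the distances below were adjusted for this, so they are not read as differences between groups. Long genes with at least 1 segment made up 10.1% in susceptible mice, 3.80% in resilient mice and 6.96% in controls. Ncam2 had the closest segment, 108.5 kb upstream of its start in susceptible mice (chromosome 16, 81091401 to 81092400), against 894.5 kb in resilient mice and 5223 kb in controls. For Cntn4 the nearest lay 752.7 kb away in susceptible, 225.3 kb in resilient and 2028 kb in control mice. For Cntnap2 the distances were 819.6, 819.6 and 373.4 kb, the susceptible and resilient lists naming the same 600 bp segment (chromosome 6, 48071001 to 48071600). Cntn5 was 2167, 1196 and 440.7 kb from a segment in susceptible, resilient and control mice. Dscam was 1779 kb from a segment in susceptible mice, 5278 kb in resilient mice and 5278 kb in controls. No H3 position of the 5 genes came closer than 241.2 kb to a segment of any list.

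**Figure D5:**
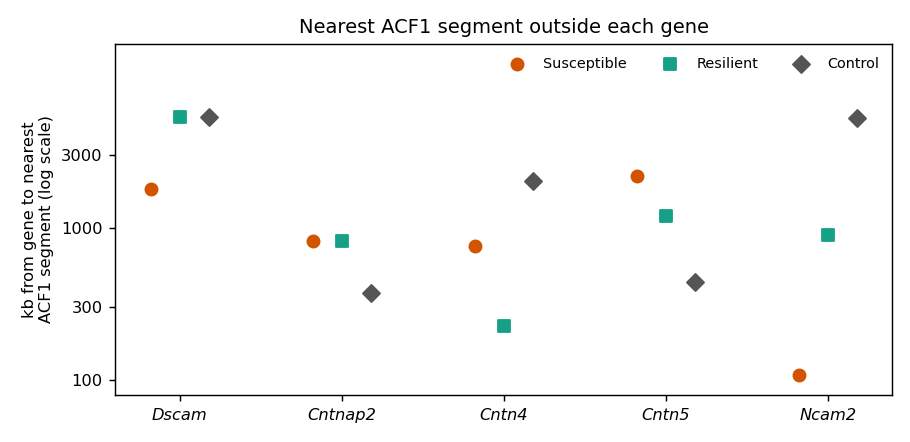
Distance in kb (vertical axis, log scale) between each gene and the nearest ACF1 segment in the list of susceptible (circles), resilient (squares) and control mice (diamonds), 1 list per group. All segments lie outside the genes, from 108.5 kb (Ncam2, susceptible) to 5278 kb (Dscam, resilient and control). The list of susceptible mice is the longest, and the distances are not adjusted for list length.

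Among the other contactins, contactin-associated proteins and immunoglobulin-type or contactin-binding adhesion genes, 23 of 31 were named in some H3 table, 19 of them outside chromosome 1. In the 5 members the shares Up were 35%, 57.1% and 72.7%, as given above. In the 19 other genes, rows were Up in 17 of 42 for susceptible against control, 18 of 44 for resilient against control and 22 of 43 for resilient against susceptible mice, shares of 40.5%, 40.9% and 51.2%. Of these genes, 9 were at least 500 kb long, with a median of 1.19 rows per 100 kb, and 0 were denser than Dscam. Sdk1, which encodes the immunoglobulin-type adhesion molecule sidekick 1, came nearest at 3.09 per 100 kb and 30 rows, 8 of 11 Down in susceptible against control and 9 of 10 Down in resilient against control. Cntnap2, with 0.580 rows per 100 kb, was sparser than Ptprd, a synaptic receptor phosphatase gene of 2271 kb that held 21 rows or 0.925 per 100 kb. Cntnap5c, a relative of Cntnap2 on chromosome 17, held 11 rows (1.72 per 100 kb), and Cntnap4 held 5 (1.60). Negr1 had 3 of 3 Up in both tables against controls, and Ntm 3 of 3 and 5 of 6 Down in the same tables. Ptprg had 9 rows, Opcml 6, Sdk2 5 and Ptprz1 5. Against controls, susceptible mice first, Ptprd had 3 Up and 3 Down, then 5 and 4. Ptprg had 2 and 1, then 3 and 0, and Opcml 2 and 1, then 0 and 1. Cntnap5c had 2 and 2, then 1 and 0, and Cntnap4 0 and 1, then 1 and 0. Sdk2 had 0 and 2, then 1 and 1, and Ptprz1 0 and 1, then 0 and 2. Of all rows of named genes outside chromosome 1, 37.6% and 36.7% were Up in these comparisons, so most were Down. On chromosome 1, Cntnap5a had 102 Down of 104 rows in susceptible against control, Cntnap5b 80 of 81, Nfasc 19 of 20 and Cntn2 5 of 5, all within that chromosome's excess of Down rows.

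Likeness was measured as the Euclidean distance between 6 counts, Up and Down in each of 3 tables, over the named genes outside chromosome 1, with ties broken by gene length. Pde4d (2.24) and Sox6 (2.83) came closest to Dscam, and Unc5d (1.41) and Rbfox1 (2) to Cntnap2. Myo3b and Scaper were nearest to Cntn4, at a distance of 1 shared by 3 genes. Sidt1 and Atp6v0a4 were nearest to Cntn5, also at 1. Pla2g5 had the same 6 counts as Ncam2, and Gpr158 was next, at a distance that 111 genes shared. Counts this small separate few genes, so the order among the nearest has little resolution.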

How the data were processed

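Chromatin of the nucleus accumbens was profiled by ACF1 ChIP-seq (sheared, 19 PCR cycles) and by H3 immunoprecipitation after micrococcal nuclease (15 cycles), with 100 bp reads, per the labels. CASAVA 1.8.2 and mm9 are named in the submitters' processing notes; not given in the sources used here are the programs behind the segments and tables, their thresholds, and any pooling of replicates. The deposited occupancy tables hold a direction; the deposited shift tables hold a signed score in bp, and a second score, the distance from the gene start in bp, stands in both kinds of table. The deposited ACF1 files cut each chromosome into 200 bp steps of state E1 or E2. Group pairs were read from the names of the tables.

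Rows were assigned to genes by the gene name in the table, gene bounds were the outermost over listed transcripts, and segments needed 1 bp of overlap. Positions are 1-based; gene bounds are as the tables give them. Named by rule were the 5 members, list genes with at least 5 rows, and the 2 nearest patterns per member. The members, lists and comparisons were chosen with earlier results of these data known. The genes denser than Dscam, Nlgn1 among clustered genes, and the 20 kb window were chosen after their values were seen. SNF2H and input samples were not analysed here. Counting was checked on tables with planted rows. Tables were read with pandas 2.3.3 and numpy 2.4.6 under Python 3.11.15; scipy 1.17.1 gave intervals and matplotlib 3.10.9 the figures.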

Additional observations from a re-analysis of the deposited data

How the results depend on the processing

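Under other ways of counting, 113 of 124 recomputed values stayed within 1.5 times the count reported or within the 95% binomial interval of the share (a yardstick for size only, since rows are not independent), and 11 moved. Some of these values could not move, such as counts of 0 under stricter rules. The members' shares rest on as few as 11 rows, so their intervals are wide. The tally is therefore no measure of stability. Without Dscam, the 5 genes' rows fell to 12 in susceptible against control and to 4 in resilient against susceptible. Without Cntn4, the members' share Up in susceptible against control was 43.8%, above the 37.6% of named genes, where with it 35% lay below. Without Cntn5 it was 29.4%, and without Cntnap2 or without Dscam 33.3%. The background depended on the genes chosen. Among named genes outside chromosome 1 it was 0.965, 0.945 and 0.841 rows per 100 kb in susceptible against control, resilient against control and resilient against susceptible, and in genes of at least 500 kb it was 0.395, 0.400 and 0.381. With all chromosomes, susceptible against control had 2.62 rows per 100 kb, 13.4% of them Up. The share Up was 45.5% and 52.1% in long genes, and 39.2% and 53.4% on the members' own chromosomes, in resilient against control and resilient against susceptible; for resilient against susceptible this crosses 50%, from 49.8% in named genes outside chromosome 1. Counts of 0 for shifts and segments stayed 0 inside the gene bounds, with 1000 bp of overlap and with bounds widened by 50 kb, as did rows within 1000 or 10000 bp of a segment. For segments these settings could not change a 0. The nearest segment lay 108.5 kb from a gene and 241.2 kb from an H3 position, so they say nothing on stability. With no segment in the genes, sharing of segments between groups gave no value. No stricter threshold could be set, since the files carry no score. No paired analysis was possible because each group had 1 sample per target. Depth is unknown.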
